A study of Mus musculus with 6 samples.

Results

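The genes described here are the Zfp-type zinc-finger genes active in mouse peritoneal macrophages: protein-coding genes of the C2H2 zinc-finger class whose names begin with Zfp, Zkscan or Zscan. Of 54532 genes in the deposited table, 371 carry such a name and class, and 169 of them reached 1 FPKM (fragments per kilobase of gene length, adjusted for sequencing depth) in at least 3 of 6 libraries. These 169 are the members, 155 named Zfp and 14 named Zkscan or Zscan. They were chosen by level, so the levels near that threshold are a description. A further 56 protein-coding genes with such names lack the C2H2 class in the table and are not members. The rule goes by name and class and looks for no repressor domain. It therefore also takes in genes known for other work, such as Zfp91, a ubiquitin ligase, and Zfp143, a transcriptional activator.

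C2H2 zinc fingers are short protein loops, each folded around a zinc ion, that read DNA a few bases at a time. Many members of the class also carry a KRAB domain, which recruits the corepressor TRIM28 (KAP1) and, through it, the H3K9 methyltransferase SETDB1, HP1 proteins and the NuRD complex. In early embryos and other cells this pathway silences retroelements and guards imprinted loci, and the genes themselves lie in chromosomal clusters that arose by repeated duplication. H3K9 and DNA methylation draw their methyl groups from S-adenosylmethionine. The product, S-adenosylhomocysteine, inhibits methyltransferases until S-adenosylhomocysteine hydrolase (SAHH, gene Ahcy) breaks it down.

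Total gene expression was measured by RNA-seq in primary macrophages. The cells were drawn to the peritoneum with thioglycollate for 4 days and enriched by letting them adhere for 6 h. The 3 control libraries are named shControl in their titles and WT in the genotype label. The 3 SAHH-KO libraries are named for a knockout in their titles and for an SAHH knockdown in the genotype label. Both groups had been stimulated for 8 h with 2 ng/mL of interferon-γ plus 10 ng/mL of lipopolysaccharide, so no unstimulated level is known. Neither the mouse strain nor the age is labelled. Nothing says whether the replicates came from separate mice or cultures, so p-values measure the spread between these libraries, which may be technical.

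Ahcy was at 25.8, 22.6 and 24.4 FPKM in the control libraries and at 5.51, 5.50 and 6.23 in the SAHH-KO libraries. Its near-copy Gm4737 was lower as well, and counting can split reads between them. The libraries held 15540442 to 16676534 reads assigned to genes in control and 15856261 to 17748745 in SAHH-KO. Of 7 macrophage markers, 6 were above 1 FPKM and Mertk was at or near 0. The list summed to 6349 to 6551 FPKM in control and 6879 to 8364 in SAHH-KO without overlap. Most of that sum is Lyz2, with means of 5653 and 6616 FPKM, which was not called (limma adjusted p 0.0670). Adgre1 (2.09-fold), Itgam (1.43-fold) and Fcgr1 (4.79-fold) were higher in SAHH-KO. Cd68 (1.03-fold) was not called, nor was Csf1r, which went the other way to 0.852 of control without overlap (limma adjusted p 0.0568). The summed markers of T cells, B cells, mast cells, fibroblasts, eosinophils and dendritic cells stayed at or below 0.319 FPKM in each library. Of 5 neutrophil markers only S100a8 passed 1 FPKM, and the list summed to 4.13 to 5.10 FPKM in control and 0 to 0.473 in SAHH-KO. The part of either list in the results below was not tested.

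The members were transcribed at low levels, and the median member did not shift on the deposited scale. Their mean over all libraries ran from 0.907 to 20.7 FPKM, with a median of 2.55, against a median of 7.83 for the 10362 genes tested. Summed over members, the level was 573, 605 and 571 FPKM in control and 614, 603 and 610 in SAHH-KO, and the 2 groups overlapped. The median member had 2.43, 2.65 and 2.53 FPKM in control and 2.53, 2.50 and 2.47 in SAHH-KO. As a share of assigned reads the members took 0.313% to 0.329% in control and 0.293% to 0.297% in SAHH-KO, which do not overlap. The share of reads was thus lower in SAHH-KO and the summed FPKM was not. They differ in scaling: the library sizes behind the deposited FPKM were 1.05 to 1.07 times the assigned reads in control and 0.937 to 0.960 times in SAHH-KO. In bulk RNA, fewer cells of a type and less RNA per cell cannot be told apart.

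Of the 169 members, 27 were higher in SAHH-KO, 31 were lower and 111 did not pass the test (limma on log2(FPKM + 1), Benjamini-Hochberg adjusted p under 0.05 over all genes tested). That is 34.3% called, where 53.3% of all genes tested were called, 26.4% higher and 26.8% lower. Among genes below 5 FPKM, where 141 of the members lie, 48.2% of all genes were called, 23.4% higher and 24.8% lower, and 33.3% of the members (19 higher and 28 lower). The median log2 fold change of members was 0.00, with quartiles at -0.22 and 0.20. Over all genes tested it was -0.01, with quartiles at -0.32 and 0.32. The 3 control and 3 SAHH-KO values did not overlap in 72 members (42.6%), 35 higher and 37 lower, where the share was 62.3% over all genes tested and 57.9% over those below 5 FPKM. The ratio of the group means was at least 1.5 in 16 members and no more than 1/1.5 in 21, where 33.1% of all genes tested and 40% of those below 5 FPKM were past that fold in either direction.

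**Figure D1:**
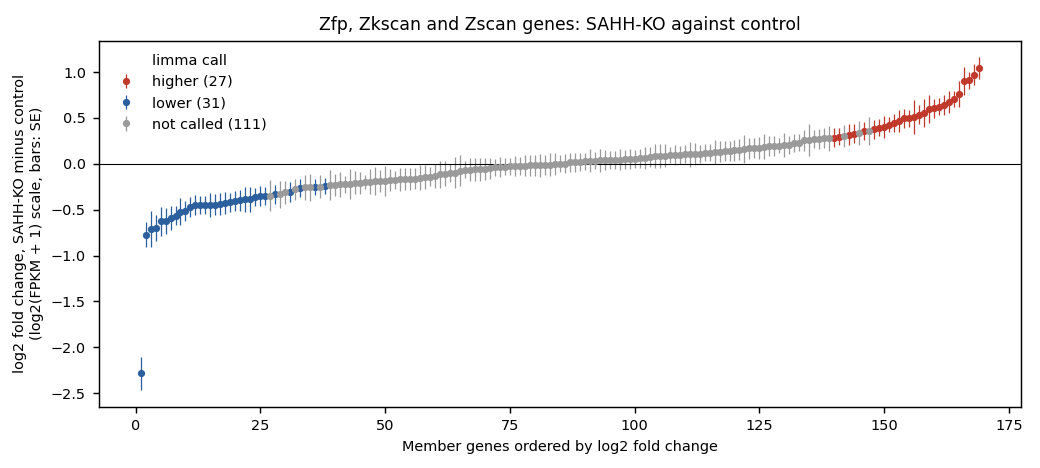
Log2 fold change of the 169 members, SAHH-KO minus control on the log2(FPKM + 1) scale, ordered from the lowest to the highest, with bars for the standard error of the fit and colours for the limma call. The values run from -2.29 to 1.04, and Zfp984 stands alone at the lower end.

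The split between rises and falls depends on the scaling. With values rescaled to TPM the count became 18 higher and 41 lower. Dividing by the reads assigned to genes gave 19 higher and 42 lower. Under those scalings the median log2 fold change of all genes tested was itself -0.16 and -0.14, and that of the members -0.14 and -0.11. All 31 falls and 18 of the 27 rises were called in the same direction under both. No called member changed sign under any of the 17 alternatives tried, and 16 rises and 13 falls passed the test in every one of those in which the gene was tested. By name, there were 4 higher and 1 lower of 14 Zkscan and Zscan genes, and 23 higher and 30 lower of 155 Zfp genes. For comparison, the 59 other C2H2 genes above the threshold had 21 higher and 6 lower, with a median log2 fold change of 0.17. The 342 genes of other transcription factor families had 132 higher and 65 lower and a median of 0.14. Of all genes tested, 26.4% were higher and 26.8% lower. The lists differ in level, with a median of 2.55 FPKM for members, 4.41 for other C2H2 genes and 6.89 for other families. The 28 members of at least 5 FPKM had 8 higher and 3 lower, with a median log2 fold change of 0.15. The 141 members below 5 FPKM had 19 higher and 28 lower, with a median of -0.02. These are counts, and no test of the difference between lists was made.

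The level threshold itself touches these counts. Of the members, 136 reached 1 FPKM in all 6 libraries. Another 9 did so in the 3 control libraries alone and 3 in the 3 SAHH-KO libraries alone. By this choice such genes had to differ, and 8 of the 9 were called lower and all 3 were called higher. The control-only members called lower are Zfp984, Zfp850, Zfp946, Zfp566, Zfp239, Zfp597, Zfp54 and Zfp369. The SAHH-KO-only members are Zfp949, Zfp691 and Zkscan14. Of the 202 family genes that did not reach the threshold, 52 had no read in any library. Just inside lie Zscan20, Zfp81 and Zfp94, whose third-highest values were 1.01, 1.01 and 1.04 FPKM. Just outside lie Zfp760, Zfp707 and Zfp994, with 0.997, 0.986 and 0.942.

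The largest change of any member was the loss of Zfp984 (ENSMUSG00000078495, chr4:147753974-147809788, minus strand, GRCm38), a gene in a dense zinc-finger cluster on distal chromosome 4. It was at 2.95, 5.66 and 3.8 FPKM in the control libraries and at 0, 0 and 0.0893 in the SAHH-KO libraries. Control 2 was the highest, and the SAHH-KO libraries were all at or near 0. In reads these are 144, 270 and 198 against 0, 0 and 4. Per unit of the library size behind the deposited FPKM, the control reads were 141.7 times the SAHH-KO reads. The 95% interval was 55.1 to 522, for counting error only. The fitted log2 fold change was -2.29 (SE 0.180, adjusted p 2.22e-05), and its size depends on the pseudocount.

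Genes around Zfp984 were looked at as well. Gm20707, a lincRNA gene that overlaps 9.68% of the exon bases of Zfp984 on the same strand, had 22, 54 and 35 reads in control and none in SAHH-KO. Zfp933, the next member along, was at 1.40, 1.63 and 1.44 FPKM in control and 1.14, 1.78 and 1.29 in SAHH-KO, and its groups overlapped (adjusted p 0.720). Of 8 family genes within 500 kb, Zfp984 included, 5 had no read in any library. By sequence, 54.5% of the 50-base words of Zfp984 also occur in other genes, most of them in Gm13212, which had 0, 4 and 2 reads in control and none in SAHH-KO. The reads of Zfp984 could in part belong to such copies. Within 150 kb, Miip had means of 3.66 and 2.83 FPKM without overlap (adjusted p 0.0642). Fv1, a restriction gene for murine leukaemia virus that was below the level threshold, was at 0.909, 0.973 and 0.689 FPKM in control and 0.261, 0.667 and 0.612 in SAHH-KO, also without overlap. These neighbours were looked at after the value of Zfp984 was seen.

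The start site of Zfp984 is shown beside that of Zfp263, the member with the highest level among the 4 largest rises, because CpG dinucleotides are the sites of DNA methylation and the 2 windows differ in how many they hold. The windows were picked after the values were seen, and DNA methylation was not measured. Each window runs from 250 bases before to 50 bases after the gene's first listed start (RefSeq, GRCm38.p6), 5′ to 3′ on the gene's strand, with CpG in capitals. The Zfp984 window (chr4:147809739-147810038, minus strand) holds 9 CpG and the Zfp263 window (chr16:3743849-3744148, plus strand) holds 20. The pair does not stand for rises and falls at large. Zfp219 and Zfp358, also among the 4 largest rises, hold 9 and 31, and the falls Zfp764 and Zfp768 hold 6 and 35.
Zfp984: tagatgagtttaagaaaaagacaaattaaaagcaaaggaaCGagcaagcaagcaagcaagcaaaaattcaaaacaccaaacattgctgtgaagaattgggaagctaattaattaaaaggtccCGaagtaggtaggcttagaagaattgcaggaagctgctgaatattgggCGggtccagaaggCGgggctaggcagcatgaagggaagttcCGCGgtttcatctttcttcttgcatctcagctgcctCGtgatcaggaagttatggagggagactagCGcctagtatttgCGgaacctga
Zfp263: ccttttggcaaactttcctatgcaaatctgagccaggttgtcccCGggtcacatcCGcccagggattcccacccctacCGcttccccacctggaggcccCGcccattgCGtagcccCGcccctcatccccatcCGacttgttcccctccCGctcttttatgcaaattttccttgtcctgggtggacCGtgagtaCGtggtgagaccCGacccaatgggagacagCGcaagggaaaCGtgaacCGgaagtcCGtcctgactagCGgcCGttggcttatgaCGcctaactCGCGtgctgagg
A promoter window was found for 144 of the 169 members. Their median CpG count was 15, against 22 for the 7549 tested genes with a window and 7 over the whole table of 27025. It was 20 in the 23 members that rose, 13.5 in the 24 that fell and 14 in the 97 that were not called. Among the falls, Zfp984, Zfp850, Zfp946, Zfp566, Zfp239, Zfp597 and Zfp54 reached 1 FPKM in the control libraries alone. Zfp949 and Zfp691, among the rises, did so in the SAHH-KO libraries alone. The level threshold fixed the direction of those genes.

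Zfp263 (ENSMUSG00000022529, chr16:3744093-3750790) was the most abundant of the 7 members whose group means had a ratio of at least 2. Its human counterpart ZNF263 is a KRAB and SCAN domain protein that binds many promoters. It stood at 8.18, 8.15 and 9.04 FPKM in control and at 20.6, 15.6 and 16.9 in SAHH-KO. Every SAHH-KO library lay well above every control library. The group means differed 2.09-fold (log2 fold change 0.97, SE 0.110, adjusted p 1.64e-04).

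Zfp516, a factor known for switching on the brown fat gene Ucp1, had the largest rise on the log2 scale. This chromosome 18 gene was at 1.85, 1.13 and 1.49 FPKM in control and at 4.28, 3.87 and 4.12 in SAHH-KO, 2.75-fold higher without overlap (1.04, SE 0.12, adjusted p 1.79e-04). Zfp358 (chr8:3493138-3497208) was at 1.34, 1.22 and 1.28 FPKM in control and 3.55, 3.37 and 2.94 in SAHH-KO. Its controls were tightly grouped, and the means differed 2.57-fold (0.91, SE 0.0962, adjusted p 1.12e-04). Zfp219 (chr14:52006077-52020733), a partner of Sox9 in cartilage, was at 2.27, 1.24 and 1.5 FPKM in control and 4.48, 3.39 and 4.03 in SAHH-KO. The groups were apart and the ratio was 2.37 (0.91, SE 0.154, adjusted p 0.00142). Of its exon bases 12.7% lie antisense to Tmem253, whose reads could not be separated unless strand was used in counting.

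Zfp513 (chr5:31198981-31202303), a gene mutated in a retinal degeneration, had the highest level of all members. Its values were 19.0, 12.1 and 14.7 FPKM in control and 27.1, 25 and 26.4 in SAHH-KO. The controls were spread widely, yet all lay below the SAHH-KO libraries (1.71-fold, log2 fold change 0.76, adjusted p 0.00246). Zfp777 (chr6:48024188-48048911) was at 3.78, 3.21 and 3.68 FPKM in control and at 6.50, 6.34 and 6.50 in SAHH-KO. This was among the most even differences, 1.81-fold (0.71, adjusted p 2.31e-04). Zfp217 (chr2:170108643-170148103), an oncogene whose product works with the CoREST and CtBP corepressors, was at 5.17, 4.43 and 4.30 FPKM in control and 7.92, 7.21 and 7.85 in SAHH-KO. It rose 1.65-fold with no overlap (0.62, adjusted p 6.89e-04).

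Zfp420, the mouse gene of the p53 inhibitor Apak, was at 0.934, 1.24 and 0.934 FPKM in control and at 2.17, 1.97 and 2.40 in SAHH-KO, 2.10-fold higher (0.64, adjusted p 0.00139). Its promoter window (chr7:29859762-29860061, plus strand) is shown because it was the only one of the 144 to hold GAAANNGAAA, the core of the interferon-stimulated response element. The match lies on the reverse strand, begins 56 bases before the start site and is in capitals.
Zfp420: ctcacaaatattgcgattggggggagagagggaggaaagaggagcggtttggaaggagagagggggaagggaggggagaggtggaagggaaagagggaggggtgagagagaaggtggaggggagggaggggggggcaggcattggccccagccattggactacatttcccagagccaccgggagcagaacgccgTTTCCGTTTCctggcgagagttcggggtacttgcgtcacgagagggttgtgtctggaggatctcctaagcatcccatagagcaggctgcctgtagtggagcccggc
That is 0.694% of members' windows, where 3.34% of tested genes' windows and 3.49% of all windows held the motif on either strand. The palindromic TTCNNNGAA, the core of the interferon-γ activated site, was in 21 member windows (14.6%), in 6.93% of tested genes' windows and in 8.47% of all windows. Of the 21, 2 belong to members that rose, 2 to members that fell and 17 to members that were not called. A match is only a run of letters and says nothing of binding.

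The other large rises were smaller or less even. Zfp580 was at 2.09, 1.99 and 2.62 FPKM in control and 5.06, 3.55 and 3.20 in SAHH-KO (0.60, adjusted p 0.01), and SAHH-KO 1 stood above the rest. Zfp827, which brings NuRD to telomeres in cells that lengthen them by recombination, was at 1.58, 1.10 and 1.16 against 3.06, 1.82 and 2.22 (0.55, adjusted p 0.0151). Zfp688 was at 1.20, 0.982 and 1.19 against 2.15, 2.26 and 1.83 (0.54, adjusted p 0.00282). Zkscan17, known as Nizp1 for its binding to the methyltransferase NSD1, was at 10.6, 9.17 and 8.53 against 13.3, 14.2 and 13.6 (0.50, adjusted p 0.00228). The rule that named the large rises and falls took only members without overlap, so none of these 4 overlapped between groups. The calls of Zfp580 and Zfp827 were lost when no level filter was used (adjusted p 0.0737 and 0.0705). Zfp580 also lost it when a GC trend over all libraries was removed (0.0516), and Zfp827 without control 3 (0.0521).

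**Figure D2:**
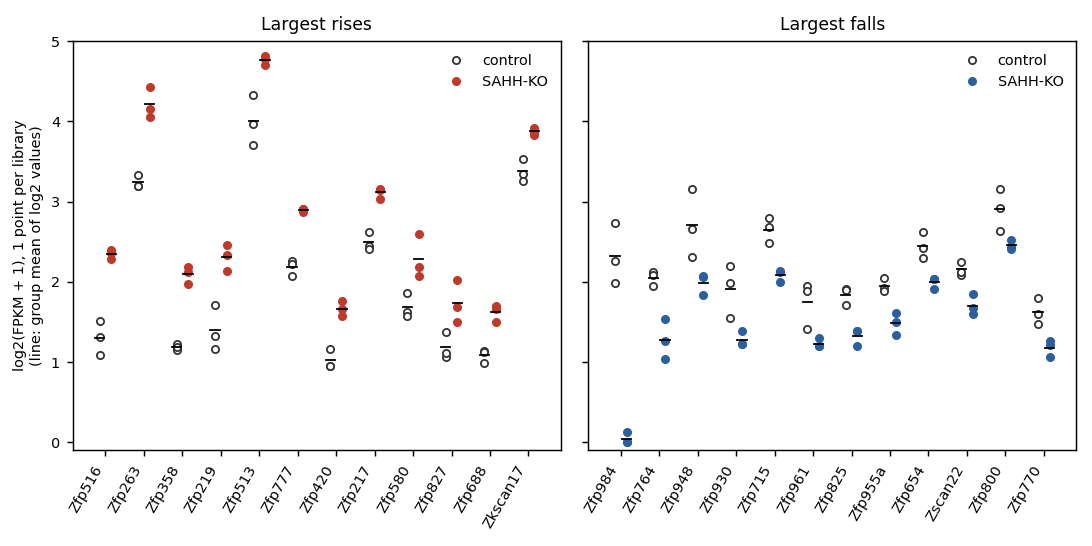
Level of the 12 members with the largest rises (left) and the 12 with the largest falls (right), among called members without overlap whose higher group mean was at least 2 FPKM, on the log2(FPKM + 1) scale, with 1 point per library, open for control and filled for SAHH-KO, and a line at each group mean. By that choice the groups are apart for every gene shown. The controls are more spread than the SAHH-KO libraries for Zfp513, Zfp948 and Zfp930.

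After Zfp984 the falls were moderate. Zfp764 (chr7:127403668-127406822) was at 3.36, 3.26 and 2.85 FPKM in control and 1.05, 1.91 and 1.40 in SAHH-KO, without overlap. Its SAHH-KO mean was 0.461 of the control mean (log2 fold change -0.77, SE 0.137, adjusted p 0.00180), and 27.1% of its 50-base words occur in other genes. Zfp948 (chr17:21567008-21588699) was at 3.94, 7.92 and 5.29 FPKM in control and 2.56, 3.22 and 3.19 in SAHH-KO. Control 2 was by far its highest library (-0.71, adjusted p 0.0151), and its call was lost without SAHH-KO 1 and with no level filter (adjusted p up to 0.0739). Zfp930 (chr8:69209038-69230536) also had its highest value in control 2, with 1.92, 3.57 and 2.95 FPKM, and 1.61, 1.34 and 1.35 in SAHH-KO (-0.63, adjusted p 0.0111), a call lost with no level filter (0.0589). Zfp715 (chr7:43296197-43313294) was more even, with 4.57, 5.92 and 5.41 FPKM in control and 2.98, 3.36 and 3.40 in SAHH-KO (-0.56, adjusted p 0.00232).

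The 12 largest falls were taken among members without overlap and with a group mean of at least 2 FPKM. The remaining 7 lay between -0.52 and -0.44 on the log2 scale. Below that FPKM level Zfp850 (-0.70), Zfp946 (-0.62) and Zfp566 (-0.59) fell further, as Zfp949 (0.68) and Zfp691 (0.61) rose further than some of the 12 rises. Zfp961 was at 1.67, 2.87 and 2.70 FPKM in control and 1.29, 1.46 and 1.29 in SAHH-KO (adjusted p 0.0170), and its call was lost in 5 alternatives. Zfp825 was at 2.27, 2.75 and 2.74 against 1.63, 1.61 and 1.30 (0.00390), and 29.5% of its words are shared, the largest part with Gm46430, which was lower too (0.00585). Zfp955a was at 2.81, 3.13 and 2.70 against 2.06, 1.52 and 1.82 (0.00587). Zfp955a and its neighbour Zfp955b are near-copies, with 51.8% of the words of Zfp955a found in Zfp955b. Zfp955b was not called, at 1.35, 2.09 and 1.5 FPKM against 1.14, 1.24 and 2.10 (0.661), so how reads were split between them bears on both values. Zfp654 was at 3.91, 5.15 and 4.38 against 3.11, 3.12 and 2.75 (0.00759). Zscan22 was at 3.74, 3.26 and 3.37 against 2.18, 2.03 and 2.60 (0.00611). Zfp800 and Zfp770 had means of 6.55 and 2.10 FPKM in control and 4.49 and 1.27 in SAHH-KO (0.0202 and 0.0126). Their calls were lost in 4 and 2 alternatives. All 7 were free of overlap, as the rule that named them required.

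Among the 6 members with the highest mean, Zfp513 and Zfp263 rose and Zfp91 fell. Zfp91 ubiquitinates the kinase NIK in the noncanonical NF-κB pathway. It was at 15.6, 20.1 and 17.4 FPKM in control and 13.3, 13.4 and 13.6 in SAHH-KO. Its SAHH-KO values were tightly grouped below all controls (-0.37, adjusted p 0.0141). Zfp710 was at 18.3, 12.7 and 14.1 FPKM in control and 15.6, 15.0 and 15.2 in SAHH-KO, with overlap (adjusted p 0.823). Zfp146, a protein made almost wholly of fingers, had means of 15.5 and 13.3 FPKM and just missed the threshold (0.0545). Its groups did not overlap, and it was called lower in 6 alternatives. Zfp335, a nuclear factor needed for T cell maturation, had means of 12.3 and 14.9 FPKM (0.115), and 28.3% of its exon bases overlap Pcif1 on the other strand.

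The members known for silencing retroelements or keeping imprints were measured next. Zfp445, which works at imprinted loci, was at 10.4, 12.7 and 10.6 FPKM in control and 12.3, 11.5 and 12.2 in SAHH-KO, with overlap (log2 fold change 0.10, adjusted p 0.418). Zfp809, which silences murine leukaemia proviruses, was at 5.73, 6.43 and 5.69 FPKM in control and 6.64, 6.10 and 5.55 in SAHH-KO (0.03, adjusted p 0.809). Zfp932, a repressor of endogenous retroviruses, was lower, at 1.72, 1.75 and 1.76 FPKM in control and 1.01, 1.31 and 0.914 in SAHH-KO (-0.41, adjusted p 0.0118). It shares 37.0% of its words with other genes, most of them with its paralog Gm15446, and its call was lost without SAHH-KO 3 and when a GC trend over all libraries was removed. Zfp568, which represses a placental promoter of Igf2, was at 4.07, 4.13 and 3.75 against 3.03, 3.51 and 2.92 FPKM. Its groups were apart (-0.26, adjusted p 0.0412), but the call was lost in 7 alternatives, 5 of them omissions of a single library. Zfp57 had no read in 5 of 6 libraries, and Zfp600 and Zfp708 had none in any. Of the 7 genes of this list, 4 were thus measurable, with 0 higher and 2 lower, where 53.3% of all genes tested were called.

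Smaller role groups gave few calls. Of the partners of ZMYND8 in the Z3 complex, Zfp687 was higher, at 4.30, 3.37 and 3.64 FPKM in control and 4.70, 5.38 and 5.47 in SAHH-KO (0.38, adjusted p 0.0155). That call was lost in 5 alternatives, among them both other scalings. Zfp592 had means of 4.60 and 5.53 FPKM (0.0828), and Zfp532 had almost no reads. Of genes tied to inflammation or lymphocytes, Zfp91 and Zfp335 are given above. Zfp281 had means of 7.84 and 8.11 FPKM (0.761), Zfp148 of 3.84 and 4.12 (0.584), and Zfp318, a splicing regulator of IgD that lacks the C2H2 class here, of 3.07 and 2.65 (0.153). The cell-cycle linked Zfp367 had means of 2.97 and 2.36 FPKM (0.206), and the spindle protein gene Zfp207, also outside the class, of 31.0 and 26.8 (0.0910). Of the ribosome assembly genes, Zfp622 had means of 10.2 and 9.68 FPKM (0.618), and Zfp593 was below the threshold.

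A few members outside the naming rule were picked after their values were seen, for what they are known to do. Zkscan3, a repressor of autophagy and lysosome genes, was at 3.03, 3.12 and 3.02 FPKM in control and 4.36, 4.34 and 4.66 in SAHH-KO. Both groups were narrow and apart (0.43, adjusted p 0.00254). Zfp143, which binds promoters and chromatin loop anchors, was at 6.96, 6.99 and 7.37 FPKM in control and 11.4, 9.64 and 9.23 in SAHH-KO (0.45, adjusted p 0.00437). Zfpm1 (FOG1), the cofactor of GATA1, was at 1.41, 0.888 and 1.01 against 2.85, 1.35 and 1.91 FPKM. It was called higher although the groups overlap (0.51, adjusted p 0.0454), and the call was lost under both other scalings. Zfp410, an activator of the NuRD gene Chd4, was lower, at 2.01, 2.21 and 2.18 against 1.27, 1.63 and 1.56 FPKM (-0.33, adjusted p 0.0220), a call lost in 4 alternatives. Chd4 itself was at 59.8, 49.8 and 48.3 FPKM in control and 69.5, 62.9 and 63.9 in SAHH-KO (0.31, adjusted p 0.0258). That rise in Chd4 was not called under TPM or assigned-read scaling.

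Base composition moved with the direction of change. The members that rose had a median GC content of 51.9% in their longest transcript, those that fell 40.7% and the rest 46.2%. In the 57 members of lowest GC (36.5% to 42.5%), 2 were higher and 19 lower, with a median log2 fold change of -0.19. In the 55 of middle GC it was 9 and 9, with a median of 0.03. In the 57 of highest GC (50.4% to 68.7%), 16 were higher and 3 lower, with a median of 0.16. Of the 19 falls at low GC, Zfp984, Zfp850, Zfp946, Zfp597, Zfp54 and Zfp369 reached 1 FPKM in the control libraries alone. The level threshold fixed the direction of those genes. Among all tested genes in those 3 ranges the shares called higher were 16.1%, 23.7% and 32.3% and the shares called lower 30.9%, 30.9% and 22.0%. Across genes, Spearman's rho between GC and the log2 fold change was 0.52 over the 169 members and 0.18 over 10340 tested genes. All points share the same 6 libraries, and genes are not independent replicates.

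The control libraries differed among themselves along the same axis. The members' deviations from the control mean had a rho with GC of 0.75 in control 1, -0.76 in control 2 and -0.07 in control 3. In the SAHH-KO libraries rho lay between -0.13 and 0.13. Control 2 was the highest of the controls in 89 of 169 members (52.7%), where it was so in 39.6% of all tested genes. The median coefficient of variation of members was 15.3% in control and 9.34% in SAHH-KO. Without control 2, rho over the members was 0.36. The median log2 fold changes of the lowest and highest GC members were then -0.09 and 0.09. The same values were not computed without control 1, which deviated along GC in the other direction. When the GC trend of each library was removed within its group, 35 members were higher and 37 lower, and all 58 calls were among them. That step hardly changes the difference between groups and narrows the spread within them. It therefore cannot tell whether the calls depend on GC. When the GC trend was removed over all libraries, which also takes out any group difference along GC, 35 members were higher and 30 lower. Of the 58 calls, 51 were among them. Without control 2 the medians of the low and high GC members thus kept their signs and were smaller.

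**Figure D3:**
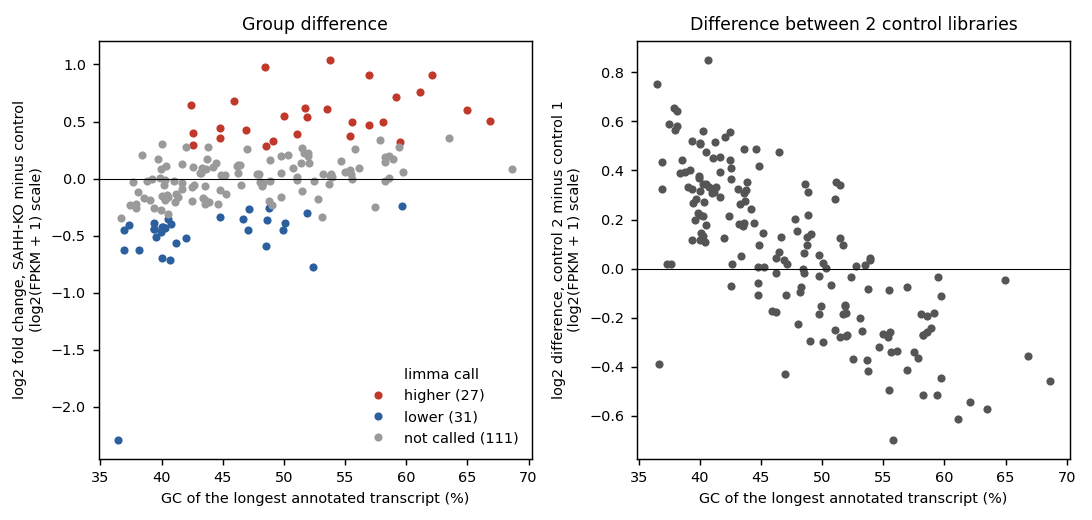
Left, log2 fold change of the 169 members (SAHH-KO minus control, log2(FPKM + 1) scale) against the GC content of the longest annotated transcript, coloured by limma call; right, the difference between control 2 and control 1 for the same genes. Falls gather at low GC and rises at high GC on the left, and the 2 controls differ along GC on the right.

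Members lie close together on chromosomes, and most members were not called, inside clusters and outside them. Taking neighbours whose starts lie at most 500 kb apart, 17 clusters of at least 3 members held 80 of the 169. Chromosome 7 alone carries 47 members and chromosome 17 carries 19. Inside clusters 8 members were higher and 13 lower (26.3% called), and outside them 19 and 18 of 89 (41.6%). Of all genes tested 53.3% were called, and of those below 5 FPKM 48.2%. The medians of the log2 fold change were -0.03 inside and 0.04 outside, and the median GC 44.0% and 48.0%. With a limit of 250 kb there were 16 clusters with 73 members, and with 1000 kb 20 with 94. No test of clustering was made.

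The 2 largest clusters, both on chromosome 7, had members moving both ways. The first (chr7:29768552-30169750) holds Zfp84, Zfp790, Zfp420, Zfp27, Zfp568, Zfp566, Zfp260, Zfp382 and Zfp146. There Zfp420 and Zfp382 were higher and Zfp568 and Zfp566 lower, though the calls of Zfp382 and Zfp568 were lost in 6 and 7 alternatives. Zfp566 was at 1.17, 1.27 and 1.75 FPKM in control and 0.591, 0.722 and 0.451 in SAHH-KO (-0.59, adjusted p 0.00508). Its levels in this run of genes are far below those of Zfp146, which ranges from 13.1 to 16.4 FPKM. The second (chr7:127233061-127885996) holds Zfp553, Zfp771, Zfp768, Zfp747, Zfp764, Zfp688, Zfp629, Zfp668 and Zfp646. Zfp764 and Zfp688 are neighbours on the same strand, the end of the first at 127406822 and the start of the next at 127418967. Yet Zfp764 fell to 0.461 of control and Zfp688 rose 1.85-fold, both without overlap. Zfp768, called lower as well, had means of 4.73 and 3.84 FPKM (adjusted p 0.0419), a call lost in 9 alternatives.

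Chromosome 17 held 3 clusters. The cluster at chr17:21008903-21588699 (Zfp160, Zfp54, Zfp51, Zfp53, Zfp52 and Zfp948) had all 6 members below 0, with a median of -0.27 and a median GC of 39.7%. Of these Zfp948 and Zfp54 were called. Zfp54 was at 1.12, 1.64 and 1.32 FPKM in control and 0.828, 0.603 and 0.826 in SAHH-KO (adjusted p 0.0174), a call lost in 2 alternatives. The cluster at chr17:32771236-33358878 had 8 members, 5 below 0, with Zfp472 and Zfp955a called lower, the first of them not in 6 alternatives. Its most abundant member, Zfp871, was at 7.17, 8.52 and 7.13 FPKM in control and 9.72, 8.21 and 11 in SAHH-KO (adjusted p 0.0590). In the third cluster (chr17:55864892-55949500) Zfp959 was called lower (2.05 and 1.35 FPKM, adjusted p 0.0386), a call lost in 6 alternatives, and Zfp119b was not. Over the chromosome 6 of 19 members were lower and 0 higher, where 26.8% of all genes tested were lower and 26.4% higher. Among those 6, Zfp54 and Zfp946 reached 1 FPKM in the control libraries alone, so the level threshold fixed their direction.

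In 2 clusters of high GC every member lay above 0. The cluster at chr7:4915217-5053723 (Zfp628, Zfp524, Zfp865 and Zfp580) had all 4 members above 0, a median of 0.41 and a median GC of 61.2%. Zfp865 was at 3.92, 2.69 and 3.07 FPKM in control and 4.61, 4.62 and 5.19 in SAHH-KO (0.47, adjusted p 0.0109), with 28.4% of its exon bases shared with Zfp784. Zfp628, the most abundant there, had means of 5.34 and 7.0 FPKM with overlap (0.0797). The cluster at chr6:47877204-48086593 (Zfp282, Zfp212, Zfp956, Zfp777 and Zfp746) had all 5 members above 0 at a median GC of 55.4%, and Zfp777 was the one called. On chromosome 13, in the SCAN gene cluster at chr13:21362820-21531120, Zkscan3 was higher while Zscan12, Zscan26 and Zkscan8 were not called.

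In other clusters a single member fell among neighbours that were not called. Zfp850 (chr7:27984854-28014115) was at 1.23, 2.17 and 1.57 FPKM in control and 0.536, 0.736 and 0.590 in SAHH-KO (-0.70, adjusted p 0.00368). Zfp850 reached 1 FPKM in the control libraries alone, so the level threshold fixed its direction. In its cluster Zfp626 had means of 2.05 and 1.71 FPKM (0.292). All 4 members there lay below 0, with a median of -0.17. Zfp930 on chromosome 8 fell in a cluster with Zfp869, at 4.50 and 5.18 FPKM (0.239), and Zfp866, at 1.38 and 1.58 (0.468). Zscan22 fell in a cluster with Zfp110, at 9.28 and 8.78 FPKM (0.708), and Zfp329, at 0.839 and 1.06 (0.230). Zfp24 on chromosome 18, needed for myelination, was at 4.09, 5.42 and 5.23 FPKM in control and 3.24, 3.75 and 3.41 in SAHH-KO (adjusted p 0.0160, lost in 4 alternatives). Its neighbour Zfp35 was not called (0.173), and all 3 members of that cluster lay below 0, with a median of -0.21. In the clusters on chromosome 9 (Zfp26, Zfp426 and Zfp266), on chromosome 13 at chr13:67387905-67729173 (Zfp429, Zfp87 and Zfp65), on chromosome 7 at chr7:24081924-24316666 (Zfp180, Zfp111, Zfp109 and Zfp94) and on chromosome 5 at chr5:138085084-138619761 (Zkscan1, Zscan21 and Zfp68), no member was called. The other chromosome 5 cluster had 1 call, Zkscan14 (0.722 and 1.09 FPKM, adjusted p 0.0474), which was lost in 10 alternatives.

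**Figure D4:**
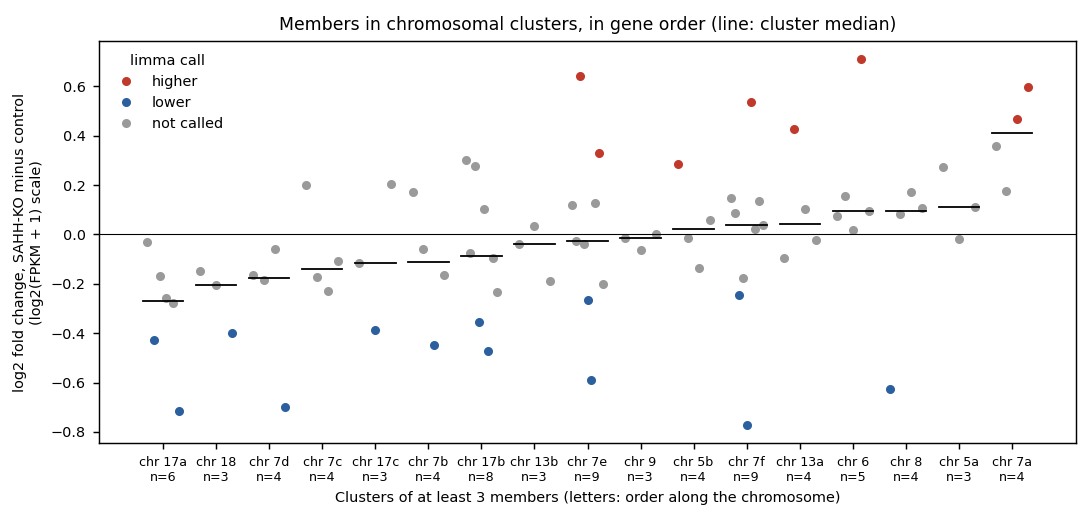
Log2 fold change of the members of each chromosomal cluster (SAHH-KO minus control, log2(FPKM + 1) scale), in gene order within the cluster, with a line at the cluster median and colours for the limma call; clusters are ordered by median. The medians run from -0.27 in the first cluster of chromosome 17 to 0.41 in the first cluster of chromosome 7.

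The corepressors through which KRAB zinc-finger proteins act were measured as the other part of the pathway. Of 35 listed genes 34 were tested, with 8 higher, 14 lower and 12 not called, and a median log2 fold change of -0.15. Over all genes tested, 26.4% were higher and 26.8% lower, with a median of -0.01. Trim28, the scaffold that binds KRAB domains, was at 60.6, 48.5 and 52.2 FPKM in control and 33.9, 37.1 and 35.1 in SAHH-KO. All SAHH-KO libraries lay below all controls (ratio 0.657, log2 fold change -0.59, SE 0.0964, adjusted p 0.00122). Setdb1, the H3K9 methyltransferase it recruits, was at 10.9, 10.3 and 10.1 against 9.60, 9.82 and 9.21 FPKM and was not called (-0.12, adjusted p 0.229). Under TPM and assigned-read scaling Setdb1 was called lower (adjusted p 0.0206 and 0.0180). The HP1 genes, which read H3K9 methylation, were all lower. Cbx5 was at 11.7, 13.0 and 12.1 FPKM in control and 5.11, 5.87 and 5.99 in SAHH-KO (-1.0, adjusted p 4.59e-05), Cbx3 had means of 6.43 and 2.83 FPKM (-0.95) and Cbx1 of 10.7 and 8.70 (-0.27). The call of Cbx1 was lost in 7 alternatives.

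The other genes of the list moved both ways, also within a complex. The H3K9 methyltransferase genes Suv39h1 (-1.0) and Suv39h2 (-0.55) and the DNA methylation genes Uhrf1 (-1.37) and Dnmt1 (-0.89) were lower, and Ehmt2 was higher (0.38). In NuRD the remodeller genes Chd3 (0.91) and Chd4 (0.31) and the scaffold genes Gatad2b (0.68), Gatad2a (0.37) and Mta1 (0.36) were higher. The histone-binding Rbbp4 (-0.55) and Rbbp7 (-0.58) and Mbd3 (-0.53) were lower, and the deacetylase genes Hdac1 and Hdac2 and Mta2 were not called. Of the HUSH-linked genes, which silence young retroelements, Morc2a (-0.43) and Fam208a (-0.33, a call lost in 6 alternatives) were lower, and Mphosph8 and Pphln1 were not called. Daxx, the H3.3 chaperone and an interferon-induced gene, had the largest difference, from 21.2, 19.1 and 18.0 FPKM in control to 120, 119 and 117 in SAHH-KO (2.55, adjusted p 2.44e-07). Its partner Atrx was not called. Of the 8 rises, those of Daxx, Chd3 and Gatad2b were called under both other scalings and those of Atf7ip, Chd4, Mta1, Gatad2a and Ehmt2 were not, while all 14 falls were.

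**Figure D5:**
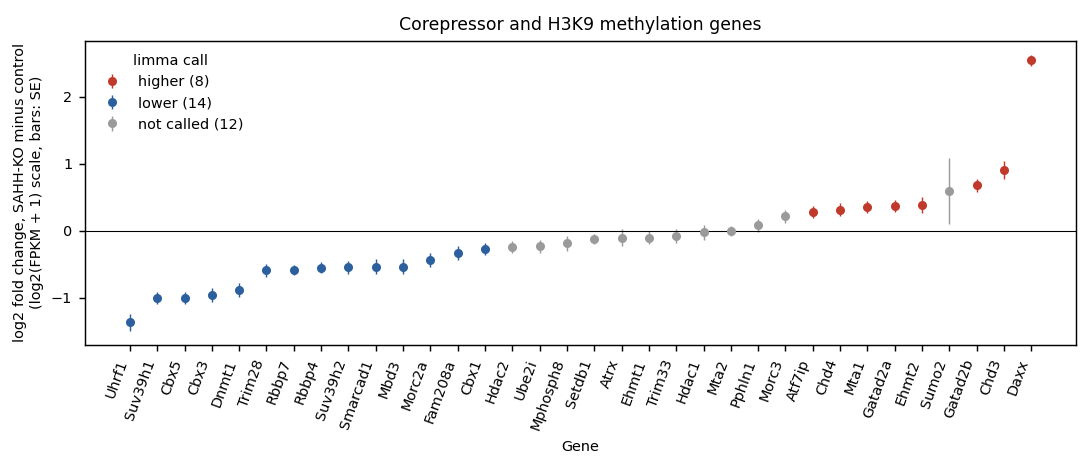
Log2 fold change of the 34 tested corepressor and H3K9 methylation genes (SAHH-KO minus control, log2(FPKM + 1) scale), with bars for the standard error of the fit and colours for the limma call. Daxx stands apart at 2.55, and Trim28, at -0.59, lies among the 14 genes that fell.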

How the data were processed

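RNA-seq was measured in 3 control and 3 SAHH-KO libraries, and groups follow the library names in the labels. The authors deposited FPKM values for 54532 genes with coordinates, class and biotype. Per the submitters' processing notes, FastQC, Trim Galore, STAR and featureCounts were used with GRCm38 and mm10; versions, strand use and the step from counts to FPKM are not given in the sources used here. FPKM times length was whole in reads for 100% of values above 0 within 0.01 of a read. That gave the library size behind the FPKM of each library and a median of 189 reads per member and library.

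The members and lists were chosen with earlier results of these data known. Genes at 1 FPKM or more in at least 3 of 6 libraries (10362) were tested with limma 3.58.1 in R 4.3.3 (lmFit, eBayes with trend) on log2(FPKM + 1), two-sided, with Benjamini-Hochberg adjustment over all of them. All adjusted p-values come from it, and log2 fold changes understate the change of low genes, so FPKM is given too. Parentheses give the log2 fold change and the adjusted p, or the latter alone. The test was checked on simulated data that held no GC trend, so the check does not cover the GC differences between the control libraries. Genes were named by rule: Ahcy; the 12 largest rises and 12 largest falls among members past the threshold without overlap and with a group mean of at least 2 FPKM; the 6 highest members; the lowest and highest member of each cluster; the role lists; Trim28, Setdb1 and the 4 other corepressor genes of smallest p; and 3 genes on each side of the level threshold. Transcripts came from GENCODE M21, where 164 of 169 members had the same start and end. There 12 members had 25% or more of their 50-base words in another gene too, and 18 had 10% or more of their exon bases inside another gene, 14 of them antisense. Replicates were compared first, and no libraries were identical.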

Additional observations from a re-analysis of the deposited data

How the results depend on the processing

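No called value of a named gene and no called member changed sign. Of 1327 values for 79 named genes under up to 17 alternatives, 1183 kept their direction and side of the threshold, 54 lost the call, 40 gained it and 50 uncalled values moved by more than the replicate spread. Without the level filter 18 members were higher and 16 lower, so that rises outnumbered falls, and 5 corepressor genes higher. In that fit 20.1% of members and 23.3% of all genes were called. TPM and assigned-read scaling moved the member median from 0.00 to -0.14 and -0.11 and gave 3 higher corepressor genes each. Leaving out 1 library at a time gave 19 to 37 members lower, 20 to 32 higher and 5 to 8 corepressor genes higher. The count of 19 came without control 3, SAHH-KO 1 or SAHH-KO 3, and the count of 5 without control 3 or SAHH-KO 3. All fits that leave out 1 library have fewer samples, and the cause of these low counts was not tested. Voom on the recovered reads called 30 higher and 31 lower. Removing GC trends was chosen after seeing the data, and over all libraries it also left more rises (35) than falls (30).

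Control and SAHH-KO libraries share replicate numbers, but the correlations of same-numbered deviations were 0.10, 0.10 and -0.01, so the numbers were not taken as pairing. With a replicate block 27 members were higher and 29 lower, 54 of these 56 shared with the reported calls. The block gave 7 higher and 14 lower corepressor genes and 5490 calls among the 10362 genes tested. Not every library correlated best with its own number.

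The count of KRAB-type members was not run, because no protein sequences were used here. The median member had 189 reads per library, which limits the precision of low members.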

Other observations

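Family genes below the level threshold were looked at in a fit without the filter. Of 150 with reads, 3 were higher and 8 lower in SAHH-KO, where 23.3% of the 22729 genes in that fit were called. Zfp334 was at 0.226, 0.297 and 0.327 FPKM in control and 1.03, 0.881 and 1.12 in SAHH-KO, 3.56-fold higher and without overlap (limma adjusted p 0.00296). Zfp945 (2.72-fold) and Zfp964 (3.20-fold) were higher at levels below 0.6 FPKM. Zfp101 was at 0.603, 0.986 and 1.14 FPKM in control and 0.243, 0.372 and 0.254 in SAHH-KO (adjusted p 0.0239). Zfp324, Zfp944, Zfp763, Zfp697, Zfp41, Zfp459 and Zfp9 were also lower. In that fit 18 members were higher and 16 lower.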
